A study of Rattus norvegicus with 6 samples.

Results

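The 7 genes described here are the aryl hydrocarbon receptor gene Ahr, its partner Arnt, the repressor gene Ahrr, and the induced genes Cyp1a1, Cyp1a2, Cyp1b1 and Tiparp. They were chosen by name, and all 7 were found among the 22093 genes with a named probe set on the array. Each has 1 probe set that carries its symbol alone. Liver RNA came from adult Sprague Dawley rats on chow, killed in the fed state, with 1 array per animal. The STZ-O group (n = 3) held offspring of males made hyperglycaemic by an intraperitoneal injection of streptozotocin, a toxin of pancreatic beta cells, and bred with normal females. The CB-O group (n = 3) held offspring of males with normal blood sugar that had been injected with citrate buffer, likewise bred with normal females. The offspring themselves received neither agent, animals of either sex were used without distinction, and 1 rat per litter entered each test.

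AHR is a transcription factor that waits in the cytosol, bound to the HSP90 chaperone, until it binds a ligand such as a dioxin, a polycyclic aromatic hydrocarbon or a tryptophan derivative. It then enters the nucleus, pairs with ARNT and binds DNA at a short core sequence, GCGTG, upstream of its target genes. In liver it is best known for inducing the CYP1 enzymes, which oxidise aromatic compounds, and for inducing the genes of its own brakes, AHRR and TIPARP. CYP1A2 is made by hepatocytes without any inducer, most of all around the central vein, while CYP1A1 is low in uninduced liver and CYP1B1 is made mainly outside hepatocytes.

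Values are log2 expression by the robust multi-array average (RMA), 1 per probe set and array, and every difference given is STZ-O less CB-O in those units. Any pair of arrays correlated across genes at a Pearson r of 0.991 to 0.995. The table has no detection call, so negative control probe sets serve as a guide to background. Their median was 5.51 and their 95th percentile 8.26. Of the 7 genes, 3 (Ahr, Arnt and Cyp1a2) averaged above that percentile over the 6 arrays, and Cyp1b1 alone averaged below the median. Hepatocyte markers stood above the median in 9 of 9 measured cases and above the 95th percentile in 8. On STZ-O replicate 3 the markers of Kupffer cells and of sinusoidal endothelium stood apart from the other arrays, at a mean of -0.38 and -0.41 relative to each marker's mean over the 6 arrays. The lowest of the other 5 arrays was at -0.05 for the Kupffer markers and -0.01 for the endothelial markers.

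The 6 genes with an entry in RefSeq's promoter table (build GRCr8) were searched for the AHR core, GCGTG, on both strands, from 250 bases before to 50 bases after the start that table uses. Cyp1a1 has no entry there. For Cyp1b1 the window lies inside the gene as RefSeq's gene list gives it, since that record begins before the window; each of the others spans the start of its gene record. The promoters of the 4 induced genes with an entry are shown because they differ in this core; capitals mark each GCGTG, which reads CACGC where it lies on the other strand.
Cyp1a2 promoter, chr8:66978100-66978399, minus strand: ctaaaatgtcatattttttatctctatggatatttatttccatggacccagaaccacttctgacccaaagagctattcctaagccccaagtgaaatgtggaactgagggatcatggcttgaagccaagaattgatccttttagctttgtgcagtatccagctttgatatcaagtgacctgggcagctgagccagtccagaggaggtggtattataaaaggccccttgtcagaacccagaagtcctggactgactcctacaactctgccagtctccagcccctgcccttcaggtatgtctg
Cyp1b1 promoter, chr6:21094315-21094614, plus strand: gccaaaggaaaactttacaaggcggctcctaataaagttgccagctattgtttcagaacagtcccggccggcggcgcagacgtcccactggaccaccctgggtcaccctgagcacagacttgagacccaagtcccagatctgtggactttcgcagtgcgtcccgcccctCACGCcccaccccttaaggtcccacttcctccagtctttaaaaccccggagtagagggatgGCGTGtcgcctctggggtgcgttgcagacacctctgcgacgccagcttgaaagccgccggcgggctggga
Tiparp promoter, chr2:152063519-152063818, plus strand: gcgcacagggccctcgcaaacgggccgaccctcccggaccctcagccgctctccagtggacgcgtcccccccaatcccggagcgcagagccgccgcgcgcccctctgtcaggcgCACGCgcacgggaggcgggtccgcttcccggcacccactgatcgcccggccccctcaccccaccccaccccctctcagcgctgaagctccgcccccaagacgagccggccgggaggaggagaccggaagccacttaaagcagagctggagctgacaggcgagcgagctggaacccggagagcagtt
Ahrr promoter, chr1:30821969-30822268, plus strand: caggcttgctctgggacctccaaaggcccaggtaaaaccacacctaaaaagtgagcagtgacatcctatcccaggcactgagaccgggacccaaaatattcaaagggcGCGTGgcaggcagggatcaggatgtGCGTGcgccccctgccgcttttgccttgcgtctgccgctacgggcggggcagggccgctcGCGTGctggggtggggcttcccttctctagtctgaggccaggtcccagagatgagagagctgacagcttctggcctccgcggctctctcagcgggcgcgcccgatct
Ahrr held the core at 3 places and Cyp1b1 at 2. Tiparp and Arnt held it at 1 place each, and the windows of Cyp1a2 and Ahr held none. Among all 33469 promoters listed there, 29.7% held at least 1, 10.2% at least 2 and 3.59% at least 3. The longer form TNGCGTG was found in Ahrr and Cyp1b1, and in 4.89% of all promoters. A match is only a run of letters, and these windows do not reach the more distant upstream elements through which AHR is known to act at Cyp1 genes.

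The receptor gene was higher in STZ-O and its partner lower, and neither difference passed limma's adjusted threshold. Ahr was at 8.69, 8.84 and 9.33 on the STZ-O arrays, against 8.49, 8.67 and 8.56 on the CB-O arrays. All 3 STZ-O values were above all 3 CB-O values, the highest being STZ-O replicate 3 and the gap between the groups being narrow. The means were 8.95 ± 0.34 in STZ-O and 8.57 ± 0.09 in CB-O (SD, n = 3 each). The difference was 0.38 ± 0.15 (limma SE), or 1.30-fold, with a 95% interval of 0.02 to 0.73, an unadjusted limma p of 0.0403 and an adjusted p of 0.853 over all genes. Without STZ-O replicate 3, the array with the low Kupffer and endothelial markers, it was 0.19 ± 0.08 (limma unadjusted p = 0.0596). The part of those markers in the Ahr value was not tested, and in whole liver RNA fewer cells of a type and less RNA per cell cannot be told apart.

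Arnt, whose product dimerises with AHR and also with the hypoxia-inducible factors, was at 8.62, 8.48 and 8.67 in STZ-O, against 8.80, 8.88 and 8.66 in CB-O. The groups overlapped through CB-O replicate 3, which lay just below STZ-O replicate 3. The means were 8.59 ± 0.10 in STZ-O and 8.78 ± 0.12 in CB-O (SD, n = 3 each), a difference of -0.19 ± 0.08 (limma unadjusted p = 0.0485, adjusted p = 0.877). With 1 array left out at a time it stayed negative, between -0.25 and -0.13, with an unadjusted p under 0.05 in 2 of those 6 fits.

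Cyp1a1, which encodes the most strongly inducible of the AHR-driven oxidases, had the largest difference of the 7. It was at 6.56, 7.68 and 7.11 in STZ-O, against 7.93, 7.58 and 8.31 in CB-O. The lowest 2 values of the 6 were STZ-O arrays, and the groups overlapped because STZ-O replicate 2 lay above CB-O replicate 2. The means were 7.11 ± 0.56 in STZ-O and 7.94 ± 0.36 in CB-O (SD, n = 3 each). The mean over the 6 arrays, 7.53, was above 89.7% of the negative controls but below their 95th percentile of 8.26. The difference was -0.83 ± 0.28 (limma SE), 1.77-fold lower in STZ-O, with a 95% interval of -1.48 to -0.17, an unadjusted limma p of 0.0194 and an adjusted p of 0.800. Cyp1a1 also varied more over the 6 arrays than nearly any other gene, its SD over them (0.62) being larger than that of 99.8% of genes. That SD takes both groups together, so it includes the difference between them. Without STZ-O replicate 1, the lowest array, the difference was -0.55 (limma unadjusted p = 0.0535); without STZ-O replicate 2 it was -1.11 (limma unadjusted p = 0.00216, adjusted p = 0.626).

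Cyp1a2, the abundant hepatic enzyme that clears caffeine, was at 11.86, 11.67 and 11.59 in STZ-O, against 11.98, 11.75 and 11.89 in CB-O. The groups overlapped, with STZ-O replicate 1 above CB-O replicate 2. The means were 11.70 ± 0.14 in STZ-O and 11.88 ± 0.12 in CB-O (SD, n = 3 each). The difference was -0.18 ± 0.09 (limma unadjusted p = 0.0886, adjusted p = 0.915), with a 95% interval of -0.38 to 0.03. Cyp1a1 and Cyp1a2 are near relatives, so their probe sets may share some hybridisation. They also lie next to each other in the rat genome. Of the protein-coding genes beside them in the RefSeq order, Csk and Lman1l on the Cyp1a2 side were at -0.09 ± 0.06 and -0.003 ± 0.07, and Edc3 and Clk3 on the Cyp1a1 side at 0.05 ± 0.05 and 0.15 ± 0.06. Clk3, a kinase gene, had an unadjusted limma p of 0.0301 (adjusted p = 0.837), the other neighbours being above 0.05, and it lay on the other side of 0 from Cyp1a1.

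**Figure D1:**
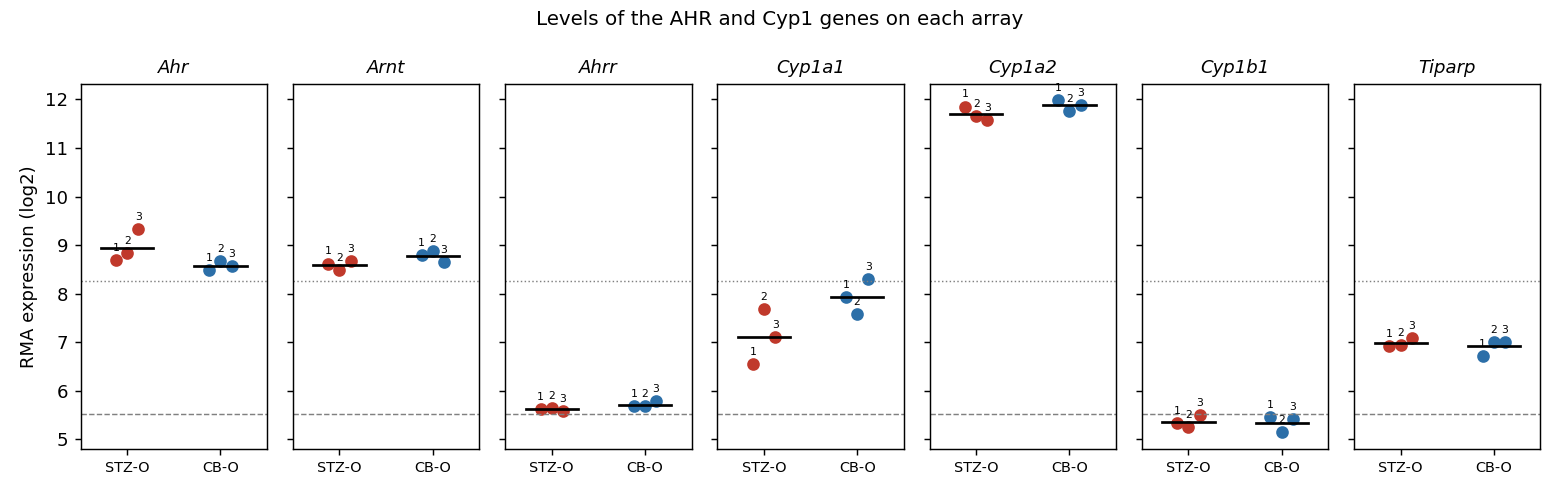
RMA log2 expression (vertical axis) of each of the 7 genes on each array, STZ-O in red and CB-O in blue, with small figures giving the replicate number, black lines the group means, and the dashed and dotted lines the negative control median (5.51) and 95th percentile (8.26). Every STZ-O point lies above every CB-O point for Ahr and below for Ahrr, each by a narrow gap, while Cyp1a1 spreads from 6.56 to 8.31.

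Tiparp encodes an ADP-ribosyltransferase that modifies AHR and dampens it. It was at 6.92, 6.94 and 7.09 in STZ-O, against 6.73, 7.01 and 7.01 in CB-O. The 3 STZ-O arrays lay within or just beyond the range of the CB-O arrays, and the difference was 0.06 ± 0.09 with a 95% interval of -0.15 to 0.28 (limma adjusted p = 0.988). Without CB-O replicate 1, the lowest array, it was -0.03. Cyp1b1, whose enzyme acts on oestrogens and polycyclic hydrocarbons, was at 5.33, 5.25 and 5.50 in STZ-O, against 5.46, 5.15 and 5.42 in CB-O. All 6 values lie below the negative control median of 5.51, so no fold is given. Of the stellate and fibroblast markers, cells in which Cyp1b1 is known to be active, 10 of 10 stood above the negative control median and 1 above the 95th percentile, with a mean level, relative to each marker's mean, of -0.06 to 0.05 in STZ-O and -0.07 to 0.12 in CB-O.

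Ahrr encodes the repressor that competes with AHR for ARNT, and its gene is itself induced by AHR. It was at 5.63, 5.64 and 5.59 in STZ-O, against 5.68, 5.69 and 5.78 in CB-O. All 3 STZ-O values lay below all CB-O values, but the whole range of the 6 arrays was 0.19 and the mean of 5.67 was close to the negative control median. The difference was -0.09 ± 0.06 (limma unadjusted p = 0.140, adjusted p = 0.945), and no fold is given at this brightness.

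Across the 7 genes, 0 passed the adjusted threshold of 0.05 in limma, as was the case for all 22093 genes (0%). At an unadjusted limma p under 0.05 there were 3 of the 7: Ahr higher in STZ-O (706 genes, or 3.2%, in that direction), and Arnt and Cyp1a1 lower (549 genes, 2.48%). Either way 5.68% of genes had such a p. Groups did not overlap for 2 of the 7 (Ahr, and Ahrr at a level close to the negative control median), against 10.1% of all genes. Of the 7 genes 3 were higher and 4 lower in STZ-O, where 48.1% and 51.9% of all genes were, and the median difference was -0.09 beside -0.004 for all genes. With 7 genes chosen with earlier results known, these counts describe the set and do not test it.

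**Figure D2:**
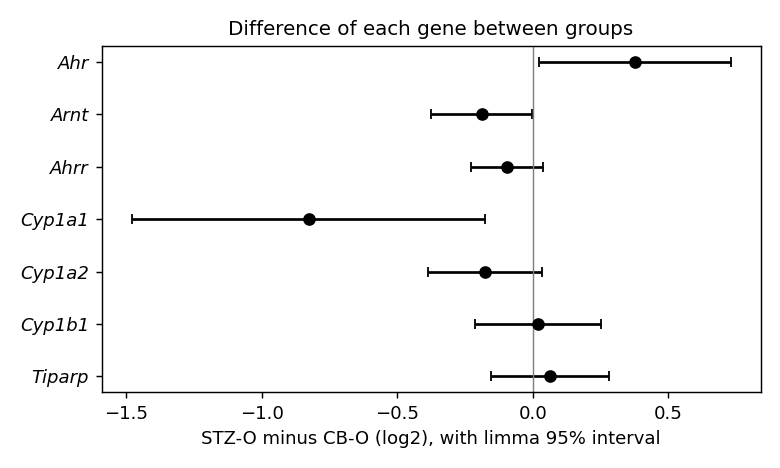
Difference between groups for each gene (horizontal axis, STZ-O minus CB-O in log2 units), with bars for the limma 95% interval. The intervals of Ahr (0.02 to 0.73), Arnt and Cyp1a1 (-1.48 to -0.17) leave out 0 before adjustment, Ahr on the higher side and the other two on the lower.

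**Figure D3:**
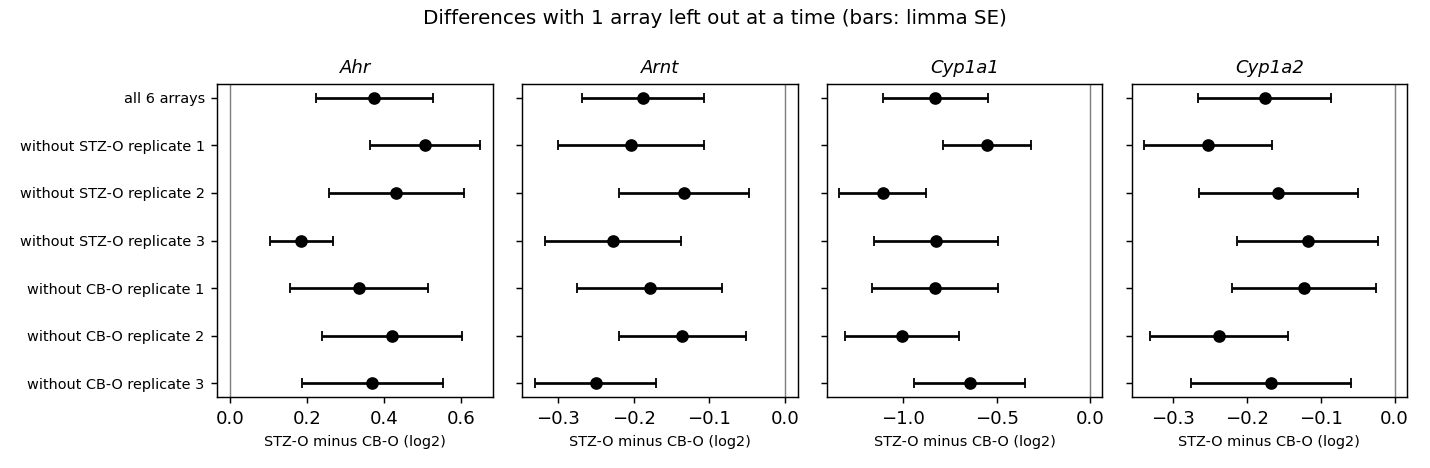
Difference between groups (horizontal axis, log2) for Ahr, Arnt, Cyp1a1 and Cyp1a2 on all 6 arrays and with each array left out in turn, with bars for the limma SE. No point crosses 0; Ahr runs from 0.19 to 0.51 and Cyp1a1 from -1.11 to -0.55.

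Whether arrays with more receptor RNA had more target RNA was asked over the 6 animals, in 21 pairs among the 7 genes. Ahr and Cyp1a2 ran opposite to each other. Their Pearson r was -0.89 (exact permutation p = 0.00556, adjusted p = 0.117 over the 21 pairs) and Spearman's rho -0.94 (exact permutation p = 0.0167, adjusted p = 0.350). The order of the arrays was nearly reversed. STZ-O replicate 3 was highest for Ahr and lowest for Cyp1a2, and CB-O replicate 1 was lowest for Ahr and highest for Cyp1a2. Without those 2 arrays, which are the farthest from the median of Ahr, r was again -0.89. Over deviations from the group means, with 3 arrays per group, it was -0.80, a value that was not tested. The permutations took no account of group, so their p-values include the difference between groups. The pooled relation did not pass the adjustment.

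Ahr and Cyp1a1 gave a Pearson r of -0.45 (exact permutation p = 0.419, adjusted p = 0.894) and a Spearman rho of -0.66 (exact permutation p = 0.175, adjusted p = 0.846). Over deviations from the group means r was 0.10, of the other sign. Without STZ-O replicate 3 and CB-O replicate 1 it was -0.30. STZ-O replicate 1, the lowest array for Cyp1a1, had an Ahr level in the middle of the 6.

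Ahr and Tiparp gave a Pearson r of 0.65 (exact permutation p = 0.0778, adjusted p = 0.373) and a Spearman rho of 0.49 (exact permutation p = 0.356, adjusted p = 0.933). That relation rested on the outer arrays, since r was -0.65 without STZ-O replicate 3 and CB-O replicate 1. Over deviations from the group means, with all 6 arrays, r was 0.65. Among the induced genes the values of r had either sign. Ahrr and Cyp1a1 gave a Pearson r of 0.78 (exact permutation p = 0.0528, adjusted p = 0.373) and a Spearman rho of 0.77 (exact permutation p = 0.103, adjusted p = 0.719). Their r was 0.71 without STZ-O replicate 3 and CB-O replicate 3, and 0.49 over deviations from the group means, with Ahrr spanning only 0.19 near the negative controls. Cyp1a2 and Tiparp ran the opposite way, with a Pearson r of -0.73 (exact permutation p = 0.0889, adjusted p = 0.373) and a Spearman rho of -0.60 (exact permutation p = 0.242, adjusted p = 0.846). Their r was 0.23 without STZ-O replicate 3 and CB-O replicate 1, and -0.75 over deviations from the group means. Cyp1a1 and Cyp1a2, adjacent genes with a shared inducer, had a Pearson r of 0.35 (exact permutation p = 0.486, adjusted p = 0.894) and a Spearman rho of 0.54 (exact permutation p = 0.297, adjusted p = 0.892). Their r was 0.85 without STZ-O replicate 1 and CB-O replicate 3, and -0.23 over deviations from the group means. Of the 21 pairs 1, Ahr with Cyp1a2, had an unadjusted exact permutation p under 0.05, and 0 had an adjusted one. The sign of r within groups differed from the pooled sign for 10 pairs.

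**Figure D4:**
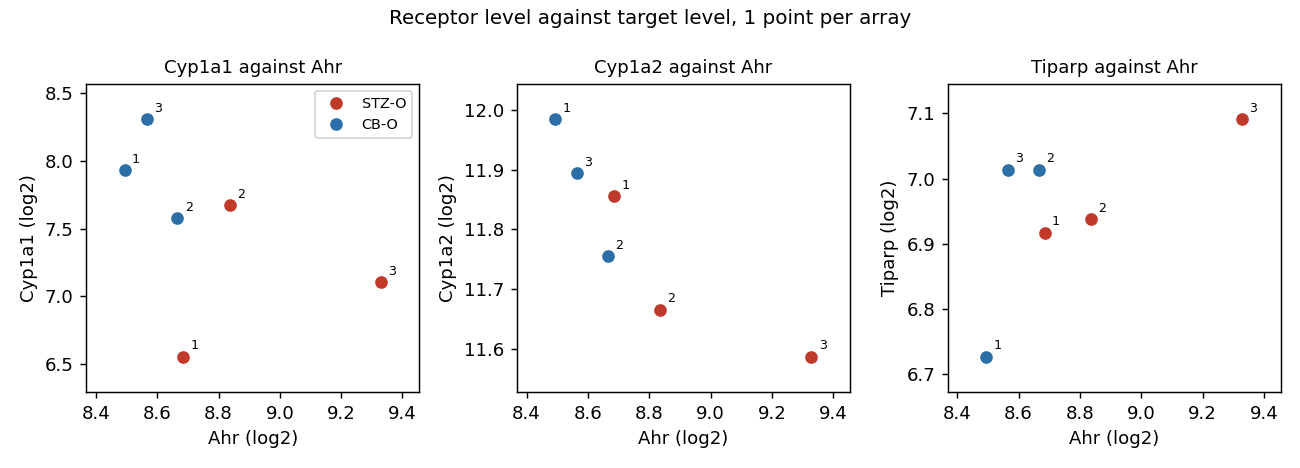
Levels of Cyp1a1, Cyp1a2 and Tiparp (vertical axes, log2) against Ahr (horizontal axis, log2), 1 point per array with its replicate number, STZ-O in red and CB-O in blue. Cyp1a2 descends as Ahr ascends (r = -0.89), while the Tiparp pattern hangs on the arrays at both ends.

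Other genes of the pathway were taken from lists chosen by function. Each list's counts stand beside 48.1% of all genes higher and 51.9% lower. At an unadjusted limma p under 0.05, 3.2% of all genes were higher and 2.48% lower. In the cytosolic complex that holds the receptor, 2 of 4 measured genes were higher in STZ-O and 2 were lower. There were 0 at an unadjusted limma p under 0.05 in either direction, and the median was 0.02. The chaperone gene Hsp90ab1, with the smallest p there, was at 0.04 ± 0.06 (limma adjusted p = 0.988). Of 11 coregulators 7 were higher and 4 lower, 0 of them at an unadjusted limma p under 0.05, and the coactivator gene Ncoa3 was at 0.06 ± 0.07 (limma adjusted p = 0.988).

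Among 9 relatives of AHR and ARNT in the PAS family 4 were higher and 5 lower. Bmal1, the clock factor that resembles ARNT, was the 1 at an unadjusted limma p under 0.05. It was at 5.95, 6.22 and 6.37 in STZ-O, against 5.74, 5.98 and 5.89 in CB-O, a difference of 0.31 ± 0.11 (limma unadjusted p = 0.0273, adjusted p = 0.826). STZ-O replicate 1 lay below CB-O replicate 2, so the groups overlapped. The clock list as a whole had 9 of 13 genes higher (48.1% of all genes were), 2 at an unadjusted limma p under 0.05 (Bmal1, and its repressor Nr1d2 at 0.15 ± 0.05), and 1 lower at that level (Cry1 at -0.24 ± 0.09), beside 3.2% of all genes higher and 2.48% lower at that level. No source used here gives the hour of killing.

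In the wider AHR battery, genes that AHR ligands are known to induce in rodents, 6 of 13 were higher and 7 lower. Their median was -0.05, beside -0.004 for all genes. At an unadjusted limma p under 0.05 there were 1 higher and 2 lower, where 3.2% and 2.48% of all genes were. Xdh, the gene of xanthine dehydrogenase, was at 9.75, 9.54 and 9.65 in STZ-O, against 9.82, 9.79 and 9.84 in CB-O, each STZ-O array being lower than each CB-O array. Its difference was -0.17 ± 0.07 (limma unadjusted p = 0.0363, adjusted p = 0.843). Ugt1a6, a glucuronosyltransferase gene that shares exons with its Ugt1a relatives, differed by -0.28 ± 0.07 (limma adjusted p = 0.651) at a level near the negative control median. Cd36, a fatty acid uptake receptor gene, was at 0.44 ± 0.19 (limma adjusted p = 0.871), with values of 0.68 when CB-O replicate 2 was left out and 0.30 when CB-O replicate 3 was. Nqo1, the quinone reductase gene classically induced with Cyp1a1 and chosen after its values were seen, was at 7.70, 7.78 and 6.38 in STZ-O, against 8.01, 7.29 and 7.67 in CB-O. STZ-O replicate 3 lay far below the rest. The difference of -0.37 ± 0.36 was 0.08 without that array.

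**Figure D5:**
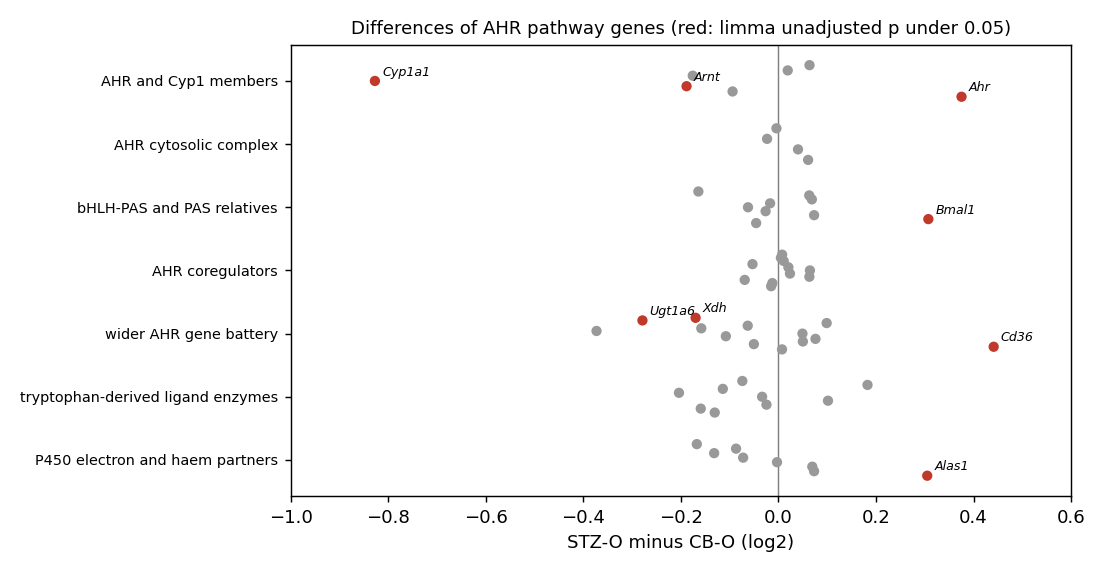
Difference between groups (horizontal axis, STZ-O minus CB-O in log2) for every measured gene of the AHR and Cyp1 set and of 6 lists around it, 1 point per gene, in red where the unadjusted limma p is under 0.05. Most points lie near 0; Cyp1a1 at -0.83 is the lowest and Cd36 at 0.44 the highest.

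Of the enzymes that make or remove tryptophan-derived ligands, 2 of 9 were higher and 7 lower. Their median was -0.07, with 0 at an unadjusted limma p under 0.05. Kyat1, which makes kynurenic acid, was at -0.11 ± 0.07 (limma adjusted p = 0.936). Of the genes that supply P450 enzymes with haem and electrons, 3 of 8 were higher and 5 lower. Alas1, the rate-limiting enzyme of haem synthesis, was the 1 at an unadjusted limma p under 0.05, with 11.21, 10.93 and 11.19 in STZ-O, against 10.88, 10.89 and 10.65 in CB-O. All 3 STZ-O values were above the CB-O values, and the difference was 0.31 ± 0.10 (limma unadjusted p = 0.0156, adjusted p = 0.795). A list of the receptors CAR and PXR, their partner gene Rxra, P450 genes that they drive and the drug transporter gene Abcb1a had 7 of 12 members higher and 5 lower, a median of 0.02 and 0 at an unadjusted limma p under 0.05. Cyp2c6v1, with the smallest p, was at 0.16 ± 0.08 (limma adjusted p = 0.912).

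Since CYP1A2 is made around the central vein, zonation markers were read beside it. Pericentral markers had 4 of 9 higher and 5 lower (median -0.05), and periportal markers 3 of 10 higher and 7 lower (median -0.06). Among all genes 48.1% were higher and 51.9% lower (median -0.004), and 2.48% were lower at an unadjusted limma p under 0.05. At an unadjusted limma p under 0.05 were the pericentral Wnt target Lgr5 (-0.25 ± 0.07, adjusted p = 0.708, at a level close to the negative control median) and the periportal urea cycle gene Ass1 (-0.34 ± 0.08, adjusted p = 0.578). The mean level of the pericentral list, each marker taken relative to its own mean over the 6 arrays, ran from -0.25 to 0.06 in STZ-O and from -0.04 to 0.21 in CB-O. Their part in the Cyp1a2 value was not tested.

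Sex is not given for the animal of each array, and several hepatic P450 genes are sex-biased in rats. Of the 5 Y-linked genes measured, 4 averaged above the negative control median and 2, Ddx3y and Eif2s3y, above the 95th percentile. Ddx3y was at 9.44, 9.36 and 9.43 in STZ-O, against 9.22, 9.67 and 9.37 in CB-O. Eif2s3y was at 8.60, 8.57 and 8.64 in STZ-O, against 8.38, 8.67 and 8.56 in CB-O. No array lacked their signal, so each reads as male, though no array of known sex is there for comparison. A fit that also held the mean level of the Y-linked genes gave Ahr 0.34, Arnt -0.21, Cyp1a1 -0.75 and Cyp1a2 -0.14. Their unadjusted limma p-values were 0.0705, 0.0322, 0.0369 and 0.118. The Y-linked level, taken relative to each gene's mean, ran only from -0.09 to 0.09 over the arrays. With Y-linked signal on every array, this fit cannot adjust for sex.

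The genes whose profile over the 6 arrays was most like that of Ahr, Cyp1a1 or Cyp1a2 were sought among the 535 or 536 other genes with an SD of at least 0.25 and a mean above the negative control median. With that many genes and 6 arrays, high values of r can arise from the size of the search alone, and they are given as a description. The search ran over both groups together, so a difference between groups can be part of each likeness to Ahr, Cyp1a1 or Cyp1a2. Nearest to Ahr were Ccn1 (r = 0.96), which encodes a matricellular protein, Bmal2 (0.94), a further ARNT-like gene, Hspa4l (0.94), Ak4 (0.93) and LOC102552448 (0.93). Of these Bmal2 was at 6.36, 6.67 and 6.99 in STZ-O, against 5.95, 6.12 and 6.15 in CB-O, a difference of 0.60 ± 0.15 (limma adjusted p = 0.632). Ccn1 stood out on STZ-O replicate 3, at 8.66 there and between 7.51 and 7.74 on the other 5 arrays.

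Nearest to Cyp1a1 were Slc10a2 (r = 0.93), the bile acid transporter gene, Rdh16 (0.88), a retinol dehydrogenase gene, Gstt3 (0.87), Blvrb-ps1 (0.84) and Plaat1 (0.83). These genes had differences between -1.15 and -0.40, so the group difference itself is part of the likeness. Slc10a2 was at 5.60, 6.12 and 6.07 in STZ-O, against 6.55, 6.33 and 6.48 in CB-O, with the same lowest array as Cyp1a1, STZ-O replicate 1. Nearest to Cyp1a2 were RT1-M2 (r = 0.96), Tnfrsf1a (0.95), Mt3 (0.94), Slc38a3 (0.93) and Prtfdc1 (0.93). Slc38a3, a glutamine transporter gene, was lowest on STZ-O replicate 3 (10.51) and highest on CB-O replicate 1 (11.23), as was Cyp1a2.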

How the data were processed

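The authors deposited log2 expression values from 6 Affymetrix rat transcriptome arrays; per the submitters' processing notes they were made with Affymetrix Expression Console 1.4.1 and RMA, which subtracts background and evens out brightness between arrays, and it compresses differences of dim probe sets. The sources used here do not name a build or an annotation. From 70580 probe sets, controls were left out (68842 remained). The platform annotation gave 23446 of them 1 symbol; symbols were updated through Entrez identifiers, and each of 22093 genes took its brightest probe set, averaged over 6 arrays.

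Groups were compared with limma 3.58.1 in R 4.3.3 (lmFit and eBayes, two-sided, no covariate), adjusted by Benjamini-Hochberg over all genes at 0.05, and tested on simulated data. Relations used exact two-sided permutation tests (scipy 1.17.1). The number of arrays limits the precision. The limma p-values rest on the spread between these animals and on variances shared across genes. In the linear fit without that sharing, unadjusted p was 0.135 for Ahr and 0.0986 for Cyp1a1. Named genes were the 7, from the pathway lists those at an unadjusted p under 0.05 or else the smallest p, and the nearest 5 profiles. Members and lists were chosen with earlier results of these data known. Some listed genes are not reported here. Alternatives covered probe set choice, dim genes, variance model, weights, scaling, adjustment, the replicate block, Y-linked level and leaving out arrays.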

Additional observations from a re-analysis of the deposited data

How the results depend on the processing

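Ahr, Arnt, Ahrr, Cyp1a1 and Cyp1a2 kept their direction in every alternative that gave them a value, and none of the 7 genes passed the adjusted threshold in any. Over all alternatives Ahr lay between 0.19 and 0.51, Arnt between -0.25 and -0.13, Cyp1a1 between -1.11 and -0.55 and Cyp1a2 between -0.25 and -0.12, with smallest adjusted limma p-values of 0.771, 0.767, 0.626 and 0.825. Cyp1b1 changed sign with array weights (-0.0185), and with 1 array left out it ran from -0.0777 to 0.0768; Tiparp ran from -0.0319 to 0.111. The cause was not tested. At an unadjusted limma p under 0.05 were 3 of the 7 genes on all arrays, 1 to 2 with 1 array left out, 0 without variance moderation and 1 among genes above the 95th percentile of negative controls, a filter that removes Cyp1a1. Over all genes, those past the adjusted threshold numbered 0, but 2 with dimmer genes left out, 2 with an intensity trend and robust variances, and 0 to 1 with 1 array left out. Those at an unadjusted p under 0.05 numbered 1255, against 175 with the stricter brightness filter and 3678 over probe sets, as fewer and more features were tested. With the replicate block, Ahr was at 0.38 ± 0.13, Arnt at -0.19 ± 0.09, Cyp1a1 at -0.83 ± 0.27 and Cyp1a2 at -0.18 ± 0.07, and 3 of the 7 genes were at an unadjusted p under 0.05, Cyp1a2 in place of Arnt. The labels do not say that the numbers pair the animals. Same-numbered arrays deviated from their group means with correlations of 0.15, -0.17 and 0.10. Of the 6 arrays 3 correlated best with their own number. So few arrays cannot decide whether the numbers pair the animals. Ahrr and Cyp1b1 are too close to the negative controls for a difference to be read.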

Other observations

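A list of genes chosen as female-biased in rat liver had 6 of 7 members higher in STZ-O, where 48.1% of all genes were. Their median difference was 0.27, beside -0.004 for all genes. The bias of Adh6 is the least certain, and the list was chosen with earlier results known. At an unadjusted limma p under 0.05 there were 3, all higher, where 3.2% of genes were. Adh6, an alcohol dehydrogenase gene, was at 8.76, 8.96 and 8.85 in STZ-O, against 8.44, 7.88 and 7.75 in CB-O (difference 0.84 ± 0.16, limma adjusted p = 0.517). Prlr, the prolactin receptor gene, was at 7.41, 6.12 and 6.15 in STZ-O, against 6.01, 5.67 and 5.44 in CB-O (difference 0.85 ± 0.33, or 0.43 without STZ-O replicate 1; limma adjusted p = 0.840). Cyp2c7, a retinoic acid hydroxylase gene, differed by 0.21 ± 0.07 (limma adjusted p = 0.748). Of 5 genes known to be higher in males, 2 were higher and 3 lower, with Cyp4a2 at 0.29 ± 0.12 (limma adjusted p = 0.854). Y-linked genes differed by -0.02 to 0.07.

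Genes were also counted by how many GCGTG cores their promoter window held. Of 9942 genes with none, 2.91% were higher and 2.60% lower in STZ-O at an unadjusted limma p under 0.05. Of 3934 genes with 1 core, 3.36% were higher and 2.41% lower, and of 1546 with 2, 3.30% and 1.94%. Of 815 genes with 3 or more, 3.93% were higher (32 genes) and 1.23% lower (10 genes). Among all 16237 genes matched to a window, 3.10% were higher and 2.42% lower. Median differences were -0.006 with no core and 0.003 with 3 or more. The base composition of the windows was not held equal between these sets.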
